A study of Mus musculus with 9 samples.

Results

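The small proline-rich genes (Sprr) encode short, repetitive proteins of the cornified envelope. The 10 genes described here (Sprr1a, Sprr1b, Sprr2a1, Sprr2a2, Sprr2a3, Sprr2b, Sprr2d, Sprr2e, Sprr2h and Sprr3) were chosen by symbol from the 21930 rows of a mouse nasal mucosa expression table, which holds 15 Sprr rows in all. They were selected with their differences between the study's groups already known. Their levels and changes are therefore given as a description of these libraries, and no p-value of theirs is printed.

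The study sequenced poly(A) RNA of nasal mucosa from wild-type mice in 9 libraries, 3 in each of 3 groups. Controls are labelled as given no treatment. Papain mice, a model of eosinophilic chronic rhinosinusitis (eCRS), received 20 µg of the plant cysteine protease papain in 20 µl of PBS in the nose on days 0 to 2 and 7 to 11. The papain and exosome group additionally received exosomes of mesenchymal stem cells (MSC-Exos) in the nose on days 7 to 11, and mice were killed on day 12. The protocol names PBS as the alternative to exosomes on those days without saying which groups received it. Whether each library is a separate mouse is not stated in the labels. The p-values below thus measure the spread between libraries alone, and that spread may be technical. Levels are in FPKM, a count of fragments divided by transcript length and by all fragments of the library, so levels of different genes can be compared per length. The depth of the libraries is unknown, since the low values did not resolve into whole fragments.

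In stratified epithelia, SPRR proteins are joined by transglutaminases to loricrin, to involucrin and to each other beneath the plasma membrane of cells that are ending differentiation. In simple and mucosal epithelia, which build no cornified layer, Sprr genes are known as injury and stress genes. SPRR2A is also known in the gut as a secreted antibacterial protein, and Sprr2 genes in the mouse airway are known to be raised by interleukin 13 through STAT6. The SPRR1 genes are textbook targets of AP-1 factors, the Fos and Jun proteins.

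The 15 Sprr rows lie within 284.695 kb of chromosome 3, chr3:92215799-92500493 (GRCm38, GENCODE M21), inside the epidermal differentiation complex. The Sprr2a genes are at its first end, with Sprr2a1 at chr3:92215799-92221911 and Sprr2a3 at chr3:92285417-92291405, both on the plus strand. Sprr3 (chr3:92456502-92458720) and Sprr1a (chr3:92483952-92485895) lie near its other end, on the minus strand. The annotated Sprr2a2 (chr3:92215920-92256724, plus strand) overlaps Sprr2a1 by 5992 bases, through a transcript that begins in the first exon of Sprr2a1.

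The promoter windows of 5 members are shown to set genes that were high after papain (Sprr2a1, Sprr2a3 and Sprr1a) beside a gene near 0 (Sprr2b) and a gene with overlapping groups as deposited (Sprr3). Each runs from 250 bases before to 50 bases after the RefSeq start (GRCm38.p6), written 5′ to 3′ on the gene's strand, and RefSeq had a window for all 10 members. Capitals mark matches to the STAT6 motif (TTC and GAA with 4 bases between them), the STAT family motif TTCNNNGAA and the AP-1 motif TGANTCA, each searched on both strands. The windows are chr3:92215585-92215884 (Sprr2a1, plus strand), chr3:92285054-92285353 (Sprr2a3, plus strand), chr3:92485832-92486131 (Sprr1a, minus strand), chr3:92316455-92316754 (Sprr2b, plus strand) and chr3:92458671-92458970 (Sprr3, minus strand).
Sprr2a1: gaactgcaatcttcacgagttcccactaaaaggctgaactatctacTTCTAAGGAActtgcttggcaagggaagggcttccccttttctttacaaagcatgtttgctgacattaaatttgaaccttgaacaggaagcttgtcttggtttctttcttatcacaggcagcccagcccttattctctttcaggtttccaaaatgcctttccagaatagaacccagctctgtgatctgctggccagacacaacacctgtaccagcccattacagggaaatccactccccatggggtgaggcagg
Sprr2a3: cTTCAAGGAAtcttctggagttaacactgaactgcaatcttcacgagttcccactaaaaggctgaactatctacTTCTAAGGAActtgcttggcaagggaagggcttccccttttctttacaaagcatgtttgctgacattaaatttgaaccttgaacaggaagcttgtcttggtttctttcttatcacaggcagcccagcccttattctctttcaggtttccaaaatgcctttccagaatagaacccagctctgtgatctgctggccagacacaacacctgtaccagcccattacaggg
Sprr1a: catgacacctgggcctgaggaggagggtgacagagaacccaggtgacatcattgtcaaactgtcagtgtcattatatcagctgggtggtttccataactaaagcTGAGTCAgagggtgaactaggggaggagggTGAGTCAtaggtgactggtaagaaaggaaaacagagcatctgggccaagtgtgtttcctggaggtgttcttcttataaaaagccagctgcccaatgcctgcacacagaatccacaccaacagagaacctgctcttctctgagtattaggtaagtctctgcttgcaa
Sprr2b: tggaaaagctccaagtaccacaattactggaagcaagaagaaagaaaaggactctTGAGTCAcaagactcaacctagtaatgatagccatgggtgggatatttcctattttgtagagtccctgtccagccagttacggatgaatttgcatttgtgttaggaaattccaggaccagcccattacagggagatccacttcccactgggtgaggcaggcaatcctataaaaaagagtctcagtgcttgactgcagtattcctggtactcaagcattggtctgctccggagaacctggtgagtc
Sprr3: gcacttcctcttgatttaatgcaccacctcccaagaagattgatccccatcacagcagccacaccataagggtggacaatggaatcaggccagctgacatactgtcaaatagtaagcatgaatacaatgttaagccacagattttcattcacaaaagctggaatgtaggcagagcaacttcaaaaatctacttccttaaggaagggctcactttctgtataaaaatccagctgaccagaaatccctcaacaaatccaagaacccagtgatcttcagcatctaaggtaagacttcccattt

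The window of Sprr2a2 (chr3:92250397-92250696) is identical to that of Sprr2a1 over all 300 bases, and that of Sprr2a3 is identical to both over the 272 bases it shares with them. The STAT6 motif was found in the windows of the 3 Sprr2a genes, with its first base at -204 from the start in Sprr2a1 and Sprr2a2 and at -176 in Sprr2a3, and in no other Sprr window of 14. Of 32851 mouse promoter windows of the same length, 6.95% hold it. The AP-1 motif was found in 9 of the 14 windows, against 7.81% of all windows, and in 6 of the 10 members. In Sprr1a it starts at -146 and again at -116, and in Sprr2b at -195. In Sprr2b, Sprr2d, Sprr2e, Sprr2f, Sprr2h, Sprr2i and Sprr2k alike, a match starts between -198 and -193. The aligned parts of these windows are 66.4% to 89.6% identical between pairs. The 9 windows are thus not separate draws to set against the share of all windows. The STAT family motif was found in Sprr2a3, at -249, and in the non-member Sprr2i, against 8.3% of all windows. Sprr3 held neither STAT motif nor the AP-1 motif. The KLF motif CACCC was found in 7 of the 14 windows against 57.5% of all, and the ETS motif GAGGAAG in Sprr3 alone against 13.6% of all. These are matches of letters, without a measurement of binding.

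The Sprr2a genes were the members that differed most between groups. Sprr2a1 was 0.384, 0.272 and 0.188 FPKM in the control libraries, 162, 122 and 111 FPKM with papain, and 16.8, 14.2 and 6.95 FPKM with papain and exosomes (replicates 1, 2 and 3 in each case). The 3 groups did not overlap, with papain highest and control lowest. The papain mean was 132 FPKM ± 26.8 (SD, n = 3), against 0.281 ± 0.0984 in control and 12.7 ± 5.12 with exosomes. On the log2(FPKM + 1) scale, which understates changes of low levels, Sprr2a1 differed by 6.68 ± 0.25 (SE) between papain and control, and by -3.34 ± 0.25 between exosomes with papain and papain.

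Sprr2a2 was 0.397, 1.02 and 0.197 FPKM in control, 185, 145 and 141 FPKM with papain, and 64.8, 56.2 and 26.6 FPKM with papain and exosomes. Its groups also stood apart from each other, and in the exosome group it kept more of its papain level than Sprr2a1 did. The means were 0.537 ± 0.428, 157 ± 24.2 and 49.2 ± 20.1 FPKM (SD, n = 3), which leaves 31.3% of the papain mean for Sprr2a2 in the exosome group and 9.62% for Sprr2a1. Its log2 differences were 6.71 ± 0.27 (papain against control) and -1.74 ± 0.27 (exosomes with papain against papain).

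Sprr2a3 was the lowest of the 3 Sprr2a genes in every library. It was 0.0715, 0.07998 and 0.0739 FPKM in control, 95.2, 63.3 and 58.1 FPKM with papain, and 7.88, 5.82 and 2.19 FPKM with papain and exosomes. The groups again did not overlap, and 7.33% of the papain mean of 72.2 FPKM ± 20.1 (SD, n = 3) was left in the exosome group. Its log2 differences were 6.06 ± 0.28 and -3.63 ± 0.28 (SE). Ranked among the 21930 rows by mean FPKM, Sprr2a2 moved from 12920 in control to 170 with papain and 742 with exosomes, Sprr2a1 from 14280 to 211 and 3636, and Sprr2a3 from 16391 to 361 and 7611.

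The coding sequences of Sprr2a1 and Sprr2a2 are identical over all 249 bases, and Sprr2a3 matches them at 246 of these. Of all 100-base windows of their transcripts, 92.5% in Sprr2a1, 92.8% in Sprr2a2 and 36.2% in Sprr2a3 are shared with another Sprr gene, so the division of reads among the 3 is uncertain, while Sprr1a and Sprr3 share none. The sum of the 3 Sprr2a genes depends less on how reads were divided among them. It was 0.853, 1.37 and 0.458 FPKM in control, 442, 331 and 310 FPKM with papain, and 89.5, 76.2 and 35.7 FPKM with papain and exosomes. The papain mean of that sum was 404-fold the control mean, and the exosome mean was 18.6% of the papain mean.

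The ratio of Sprr2a2 to Sprr2a1 separated the papain from the exosome libraries with little spread within either group. It was 1.14, 1.19 and 1.27 in the papain libraries and 3.86, 3.95 and 3.83 in the exosome libraries, although the levels themselves varied by more than that within the exosome group. In control it was 1.03, 3.75 and 1.05, where both genes were near 0 and control library 2 stood apart. The ratio of Sprr2a3 to Sprr2a1 was 0.588, 0.519 and 0.523 with papain, 0.469, 0.409 and 0.315 with exosomes and 0.186, 0.294 and 0.393 in control. Whether reads shared between these genes moved the ratios was not tested.

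**Figure D1:**
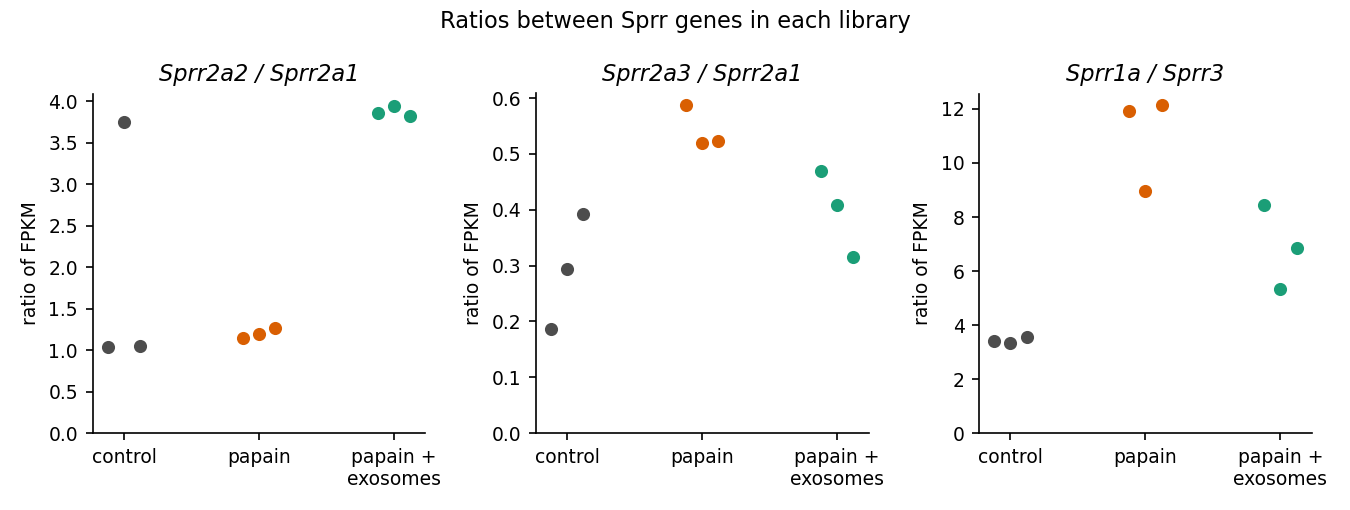
Ratio of FPKM between pairs of Sprr genes in each library (dots, y axis from 0), by group. Sprr2a2 over Sprr2a1 sits at 1.14 to 1.27 in the 3 papain libraries and at 3.83 to 3.95 in the 3 exosome libraries, and Sprr1a over Sprr3 is 3.34 to 3.56 in the controls and higher in every other library.

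Sprr1a, an envelope precursor also known from regenerating nerve and stressed epithelium, was the member with the highest level in control mucosa. It was 34.5, 16.9 and 23.0 FPKM in control, 88.2, 63.2 and 89.5 FPKM with papain, and 47.2, 34.8 and 51.1 FPKM with papain and exosomes. The papain libraries were above all others, and as deposited each exosome library was above every control, by little for exosome library 2 (34.8 against 34.5 FPKM). After the median-of-ratios scaling described below, the exosome libraries (27.0, 21.8 and 43.4) overlapped the controls (45.1, 22.1 and 30.1). The papain libraries (82.5, 89.0 and 92.2) stayed above both. The means were 24.8 ± 8.93, 80.3 ± 14.8 and 44.4 ± 8.52 FPKM (SD, n = 3), a log2 difference of 1.70 ± 0.24 for papain against control and of -0.84 ± 0.24 for exosomes with papain against papain. Its close relative Sprr1b, whose coding sequence is 78.9% identical, was listed at 0 in all 9 libraries.

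Sprr3, a marker of the suprabasal layers of stratified epithelium such as esophagus, had similar levels in the 3 groups as deposited. It was 10.1, 5.05 and 6.47 FPKM in control, 7.39, 7.05 and 7.38 FPKM with papain, and 5.58, 6.52 and 7.44 FPKM with papain and exosomes. All 3 groups overlapped as deposited, with means of 7.20 ± 2.60, 7.27 ± 0.194 and 6.51 ± 0.933 FPKM (SD, n = 3). After the median-of-ratios scaling described below, the exosome libraries were 3.20, 4.09 and 6.33. They were then below every control (6.62 to 13.2) and every papain library (6.91 to 9.93). The log2 differences as deposited were 0.059 ± 0.21 for papain against control and -0.15 ± 0.21 for exosomes with papain against papain. The latter was -0.75 ± 0.25 when scaled.

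Within the controls, Sprr1a and Sprr3 kept a nearly fixed ratio, at 3.42, 3.34 and 3.56, while their levels differed between these libraries. The ratio was 11.9, 8.97 and 12.1 with papain and 8.46, 5.34 and 6.87 with papain and exosomes, so that no treated library overlapped a control. Exosome library 3 was the lowest of its group for all 3 Sprr2a genes and the highest for Sprr1a and Sprr3.

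The other 5 members were at or near 0. Sprr2b was 0.315, 1.44 and 0.275 FPKM with papain, listed at 0 in every control, and 0.0731, 0 and 0 FPKM with papain and exosomes. It was thus above 0 in all 3 papain libraries. Sprr2d was above 0 only in control library 2 (0.178 FPKM) and Sprr2e only in control library 1 (0.0645 FPKM), and Sprr2h was listed at 0 in all 9 libraries. None of these 5 passed the filter of at least 1 FPKM in at least 3 libraries, which the other 5 members did.

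The 5 Sprr rows that are not members are shown for the rest of the cluster, and none passed the filter. The pseudogene Sprr2j-ps was listed at 0 in every control, at 1.59, 0.345 and 0.726 FPKM with papain, and at 0.0936, 0 and 0.0727 FPKM with papain and exosomes, the same order of groups as Sprr2b. Sprr2f was above 0 in all 9 libraries with overlapping groups, highest in control library 3 (2.05 FPKM). Sprr2i was listed at 0 throughout, and Sprr2k and Sprr4 did not exceed 0.0763 and 0.156 FPKM.

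**Figure D2:**
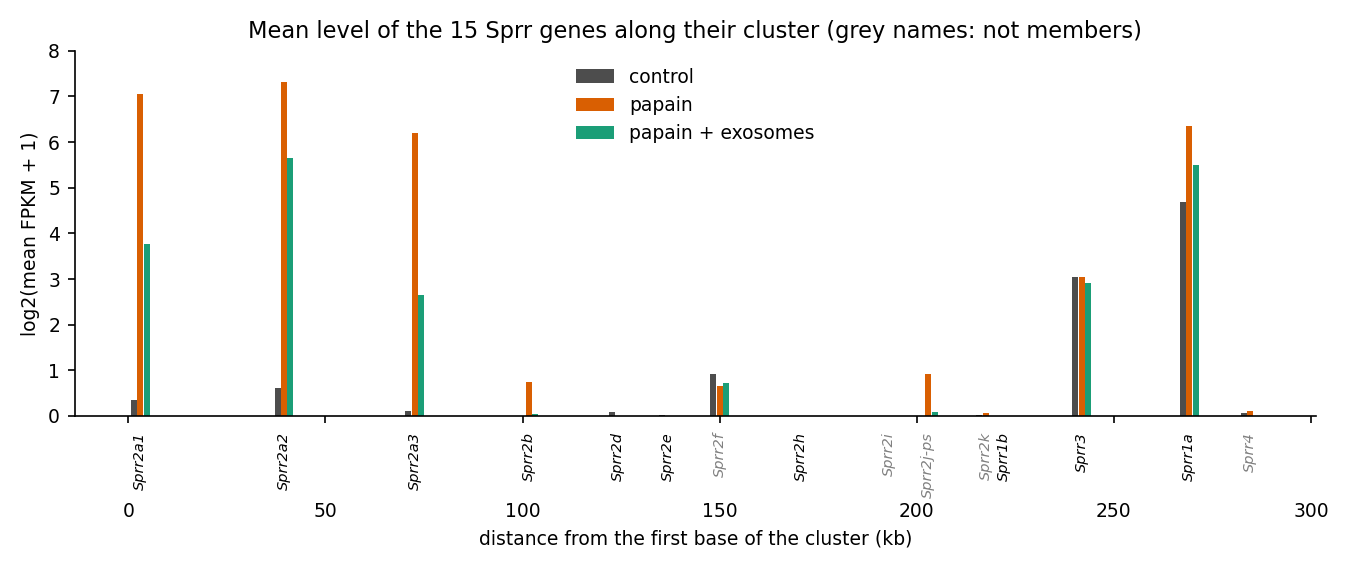
Mean level of each of the 15 Sprr genes, as log2(mean FPKM + 1), against distance in kb from the first base of the cluster, with a bar per group (n = 3 libraries each). Sprr2a2 is drawn at the end of its annotated span. The high bars are the 3 Sprr2a genes at the left, raised in papain, and Sprr3 and Sprr1a at the right, while the genes between them stay below 1 on this scale.

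**Figure D3:**
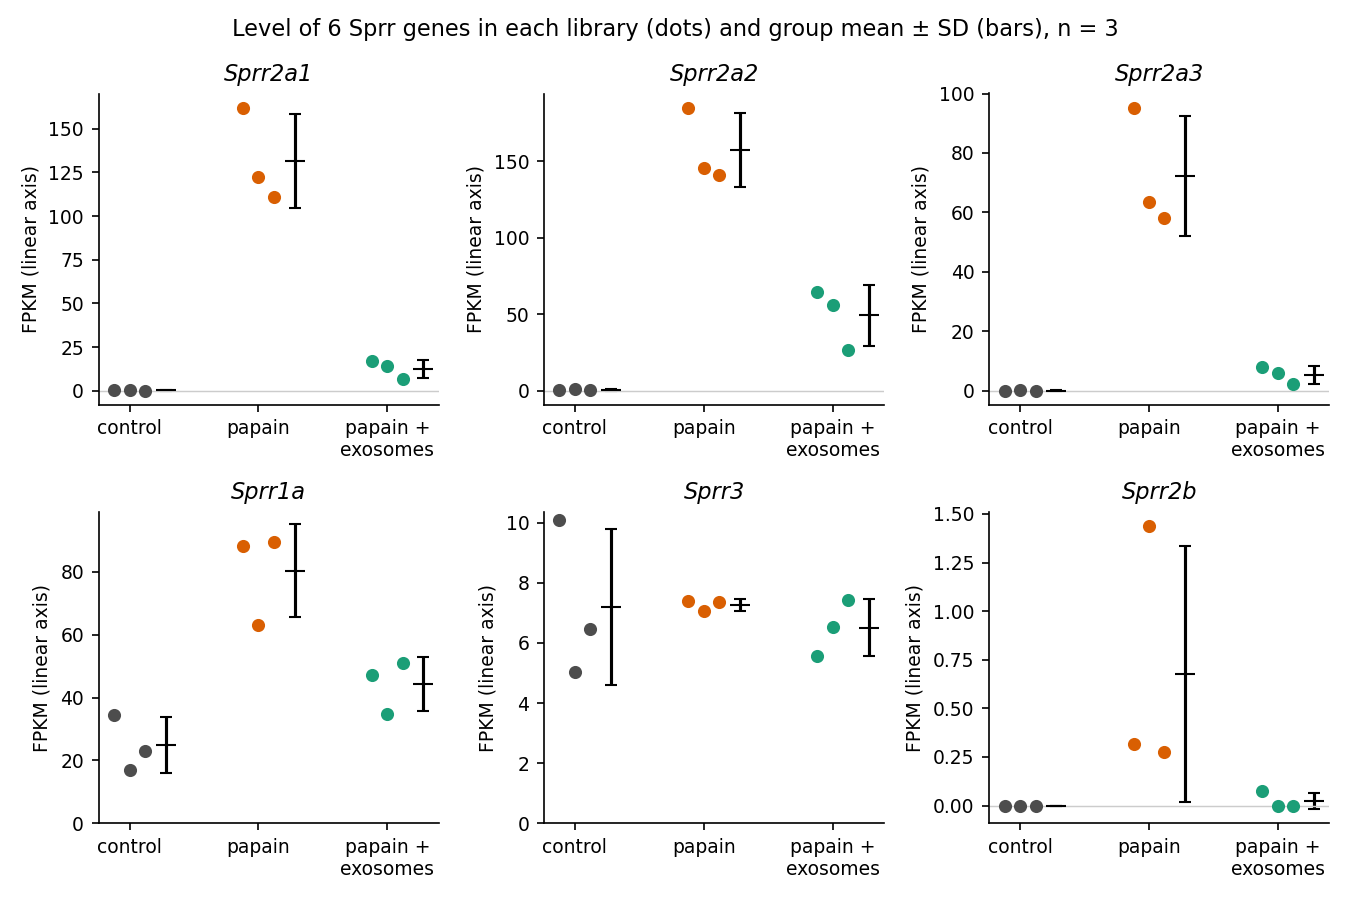
FPKM of 6 Sprr members in each library (dots) with group mean ± SD (black bars, n = 3), on linear axes that differ between panels. Papain libraries are above the other groups for Sprr2a1, Sprr2a2, Sprr2a3, Sprr1a and Sprr2b, and the groups overlap for Sprr3.

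Summed over the 10 members, the level was 45.5, 23.5 and 29.9 FPKM in control, 538, 403 and 407 FPKM with papain, and 142, 118 and 94.3 FPKM with papain and exosomes. The groups did not overlap. The means were 32.9 ± 11.3, 449 ± 77.0 and 118 ± 24.0 FPKM (SD, n = 3), 13.6-fold higher with papain than in control, with the exosome mean at 26.3% of the papain mean and 3.58-fold the control mean. In bulk tissue, fewer cells of a type and less RNA per cell cannot be told apart.

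The make-up of that sum differed as much as its size. The 3 Sprr2a genes held 3.08% ± 2.39 of it in control, 80.2% ± 3.49 with papain and 55.2% ± 15.03 with papain and exosomes (SD, n = 3), where the libraries were at 62.9%, 64.9% and 37.9%. Sprr1a went from 74.8% in control to 18.0% and 39.0%, and Sprr3 from 21.8% to 1.65% and 5.79%. Without the 3 Sprr2a genes, the log2 difference of the sum between papain and control was 1.48, against 3.77 with them, and between exosomes with papain and papain it was -0.78, against -1.93.

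**Figure D4:**
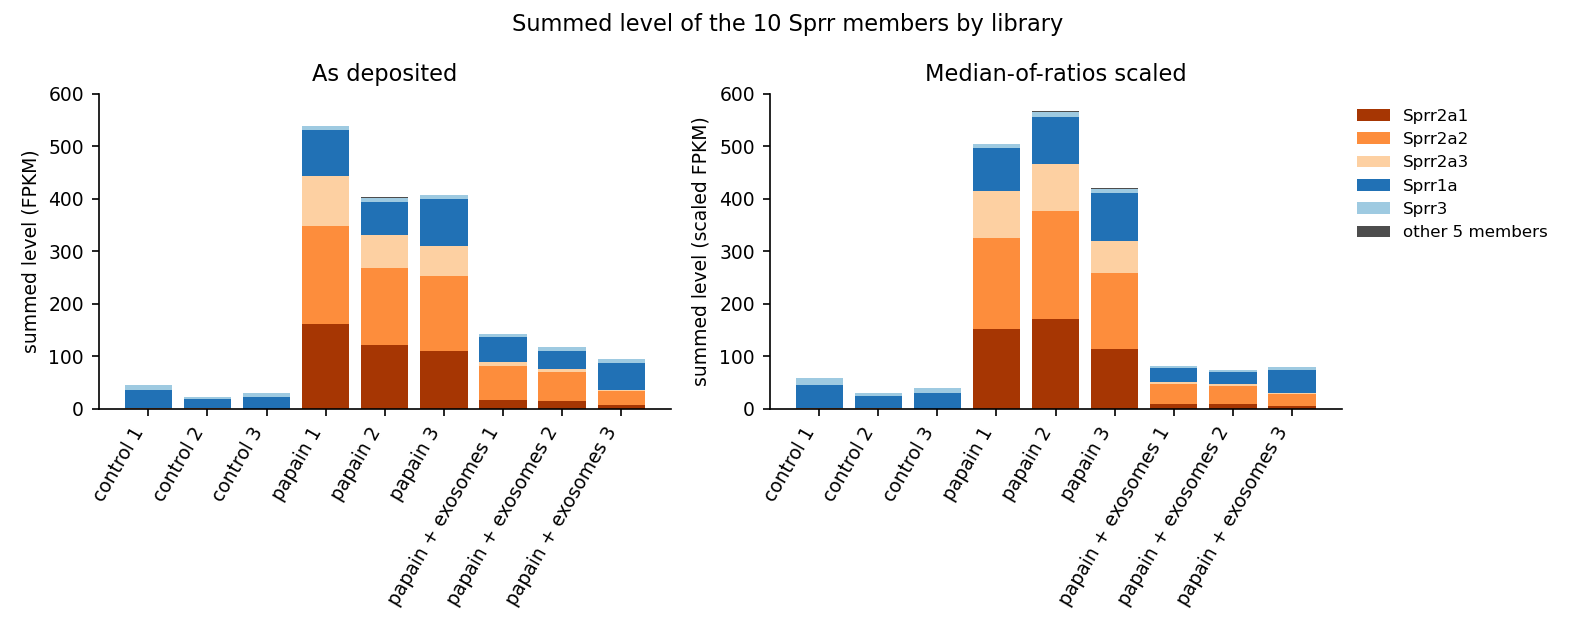
Summed level of the 10 members in each of the 9 libraries, stacked by gene, as deposited FPKM (left) and after median-of-ratios scaling (right), both on linear axes from 0. Controls consist almost wholly of Sprr1a (blue) and Sprr3 (light blue), papain libraries mostly of the 3 Sprr2a genes (orange shades), and exosome libraries lie between, with a larger share of Sprr2a2 than of the other Sprr2a genes.

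The libraries differed in scale, and 5 abundant nasal gland markers summed to 133761 to 159108 FPKM in control, 105780 to 131352 with papain and 54113 to 104879 with papain and exosomes. The median tested gene differed by 0.19 (log2) between papain and control, by 0.56 between exosomes with papain and papain, and by 0.76 between exosomes with papain and control. After median-of-ratios scaling, which removes this shift, the summed means were 43.1 ± 14.8 in control, 497 ± 74.0 with papain and 78.5 ± 4.22 with papain and exosomes (scaled FPKM, SD, n = 3). Scaled, the exosome group held 5.59% of the papain mean for Sprr2a1, 18.2% for Sprr2a2, 4.21% for Sprr2a3 and 34.99% for Sprr1a.

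Scaling changed the sign of 2 differences and the size of others. Between exosomes with papain and control, Sprr1a differed by 0.85 ± 0.24 as deposited and by -0.073 ± 0.27 when scaled. Between papain and control, Sprr3 differed by 0.059 ± 0.21 as deposited and by -0.15 ± 0.25 when scaled. Between exosomes with papain and control, Sprr3 differed by -0.087 ± 0.21 as deposited and by -0.90 ± 0.25 when scaled. The Sprr2a genes were higher than control on both scales, by 3.34, 4.97 and 2.43 as deposited and by 2.72, 4.28 and 1.93 when scaled (Sprr2a1, Sprr2a2 and Sprr2a3, log2). For papain against control, scaling left them at 6.73, 6.72 and 6.17, with Sprr1a at 1.47.

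Counts of members past the threshold are given with the share of all tested genes past it, and nothing is read from them, since these contrasts chose the members. The threshold was an adjusted p under 0.05 in limma, over 12738 genes as deposited and 12507 when scaled. For papain against control, 4 of the 5 members above the filter were past it as higher and 0 as lower on both scales, where 3.01% of all genes were higher and 0.518% lower as deposited, and 5.77% and 4.15% when scaled. Between exosomes with papain and papain, 4 were lower and 0 higher as deposited, where 63.0% of all genes were higher and 0.730% lower. When scaled, 5 were lower and 0 higher, where 13.4% of all genes were higher and 16.2% lower. Against control, 4 were higher and 0 lower with exosomes and papain as deposited, where 84.3% of all genes were higher and 0.526% lower. When scaled, 3 were higher and 1 lower (Sprr3), where 12.3% of all genes were higher and 15.6% lower. The 3 comparisons share libraries.

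Each member was also set against the family sum. Over the 9 libraries, on log2(scaled FPKM + 1), Pearson's r with the sum was 0.98 for Sprr2a3, 0.98 for Sprr2a1, 0.90 for Sprr1a, 0.89 for Sprr2a2 and 0.16 for Sprr3. The members are part of the sum, so these values describe its composition. Among 11075 other tested genes, the 6 with the highest r over the same 9 libraries were Klf3 (0.991), Map2k3 (0.990), Acadl (0.989), Mrgprg (0.981), Shmt1 (0.980) and Klf5 (0.979). The libraries fall into 3 groups and share their scaling, so such values are reached by genes that follow the group means. Klf3 and Klf5 are zinc finger factors of epithelia, Map2k3 is a kinase upstream of p38, and Mrgprg is a receptor of the Mas-related family.

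Mrgprg, like the Sprr2a genes, was near 0 in control. It was 0.0473, 0.0416 and 0.149 FPKM in control, 8.53, 6.20 and 4.61 FPKM with papain, and 1.68, 1.69 and 0.807 FPKM with papain and exosomes. Klf5 had an equal level in both papain groups as deposited, with means of 5.25, 13.3 and 13.1 FPKM (control, papain, papain and exosomes). Its log2 change was 1.18 ± 0.21 (limma, adjusted p = 0.00159) for papain against control. In the comparison of exosomes with papain to papain it was -0.017 ± 0.21 (adjusted p = 0.941) as deposited and -0.67 ± 0.097 (adjusted p = 0.00324) when scaled.

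Most other envelope genes were low in this tissue or did not pass the test. The lists of other genes below were chosen with earlier results of these data known, so counts over them are descriptive. For every list of other genes that follows, the share of all tested genes past the threshold in papain against control was 3.01% higher and 0.518% lower as deposited, and 5.77% and 4.15% when scaled. Between exosomes with papain and papain that share was 63.0% higher and 0.730% lower as deposited, and 13.4% and 16.2% when scaled. Of 43 other structural envelope genes (loricrin, involucrin, filaggrins, late cornified envelope genes and the like), 17 were above the filter, and 1 rose and 0 fell with papain on the deposited scale (2 and 0 at an unadjusted p under 0.05). The median log2 change of these 17 was 0.15, against 0.19 for all tested genes. The gene that rose was Anxa1, annexin A1, a membrane-binding envelope protein that also limits inflammation, at 107, 367 and 235 FPKM (control, papain, papain and exosomes). It changed by 1.76 ± 0.20 (limma, adjusted p = 1.28e-05) with papain and by -0.63 ± 0.20 (adjusted p = 0.0137) between exosomes with papain and papain. The second call ended without papain library 3 (adjusted p = 0.0713), and scaled it was -1.34 ± 0.16 (adjusted p = 0.00174). In that comparison 3 of the 17 genes rose and 1 fell (Anxa1) as deposited, and 0 rose and 3 fell of 18 when scaled. Loricrin (Lor) had means of 0.967, 1.32 and 1.51 FPKM, with a log2 change of 0.24 ± 0.18 for papain against control (adjusted p = 0.504), and involucrin (Ivl) and filaggrin (Flg) were under 1 FPKM in every library.

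Among 22 genes that crosslink the envelope, make its lipids or cut its proteins, 9 were above the filter, and with papain 2 rose and 1 fell. Between exosomes with papain and papain, 3 rose and 1 fell (Alox12e) as deposited, and 0 rose and 2 fell when scaled. Alox12e, a lipoxygenase of the epidermal family, was 1.18, 0.710 and 0.894 FPKM in control, 43.0, 24.2 and 22.9 FPKM with papain, and 10.1, 12.1 and 5.34 FPKM with papain and exosomes, with no overlap between groups. Its log2 change was 3.96 ± 0.26 (limma, adjusted p = 3.11e-09) with papain and -1.62 ± 0.26 (adjusted p = 0.000365) between exosomes with papain and papain, and on the scaled values 3.90 and -2.26. St14, the membrane protease matriptase, rose by 1.19 ± 0.22 (adjusted p = 0.00239) with papain, and the kallikrein Klk14 fell by 1.05 ± 0.19 (adjusted p = 0.00286). Transglutaminase 1 (Tgm1), which joins SPRR proteins to the envelope, had means of 0.855, 0.737 and 0.544 FPKM and was below the filter.

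Of 13 desmosome genes, 9 were tested and 0 rose or fell with papain as deposited (limma, with 4 higher and 0 lower at an unadjusted p under 0.05), with 2 higher when scaled. Of 16 keratins of stratified epithelium, 14 were tested and 5 rose with papain (Krt14, Krt15, Krt16, Krt6a and Krt76), but only Krt14 and Krt16 when scaled. Between exosomes with papain and papain, 2 of the keratins rose and 3 fell as deposited, and 0 rose and 5 fell when scaled. Krt14, the basal cell keratin, had means of 10.3, 22.1 and 14.4 FPKM. It changed by 1.04 ± 0.19 (limma, adjusted p = 0.0026) with papain and by -0.60 ± 0.19 (adjusted p = 0.0129) between exosomes with papain and papain. The scaled papain change was 0.83 ± 0.17 (adjusted p = 0.015), and it was lost without control library 2 or papain library 3 (adjusted p up to 0.0531). Krt10, the keratin of the suprabasal epidermis, was at 4.77, 6.28 and 6.89 FPKM and did not pass the test with papain (log2 change 0.39 ± 0.26, adjusted p = 0.445).

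S100 genes are calcium-binding neighbours of the Sprr cluster in the same complex. Of 14 listed, 11 were tested and 6 rose with papain, and between exosomes with papain and papain 2 rose and 0 fell as deposited (63.0% of all genes higher, 0.730% lower), whereas 1 rose and 7 fell of 12 when scaled (13.4% of all higher, 16.2% lower). S100a6 changed by 1.58 ± 0.20 (limma, adjusted p = 4.05e-05) with papain and by 0.15 ± 0.20 (adjusted p = 0.49) between exosomes with papain and papain. When scaled the latter was -0.56 ± 0.13 (limma, adjusted p = 0.0138), a call lost without papain library 3 or exosome library 1 (adjusted p up to 0.0528). Its means were 51.8, 157 and 174 FPKM (control, papain, papain and exosomes).

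Of 31 transcription factors of epithelial differentiation, 26 were tested and 7 rose with papain (Cebpb, Elf3, Fosl2, Junb, Klf4, Klf5 and Sox2), while 0 fell (14 and 0 at an unadjusted p under 0.05). In exosomes with papain against papain, 8 of 26 rose and 0 fell as deposited, where 63.0% of all tested genes were higher, and 0 rose and 13 fell of 25 when scaled, where 16.2% of all were lower. Elf3, an ETS factor known to act on Sprr promoters, changed by 1.02 ± 0.20 (limma, adjusted p = 0.00365) with papain. Its change between exosomes with papain and papain was 0.74 ± 0.20 (adjusted p = 0.00429) as deposited and 0.051 ± 0.12 (adjusted p = 0.784) when scaled.

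Among 32 cytokines, receptors and STAT factors known to raise Sprr genes, 17 were tested and 7 rose with papain (Areg, Il13ra1, Il1b, Il4ra, Lifr, Osmr and Stat3), while 0 fell (11 and 1 at an unadjusted p under 0.05). When scaled, 8 of 16 rose and 1 fell (Il33). Between exosomes with papain and papain, 8 rose and 1 fell (Areg) as deposited (63.0% of all genes higher, 0.730% lower). When scaled, 1 rose and 6 fell of 16 in that comparison (13.4% of all higher, 16.2% lower). Areg, the EGF receptor ligand amphiregulin, had means of 0.465, 1.78 and 0.752 FPKM, rose by 0.92 ± 0.18 (limma, adjusted p = 0.00419) with papain and fell by 0.65 ± 0.18 (adjusted p = 0.00552) between exosomes with papain and papain, with the same calls when scaled. Stat6 was at 5.82, 8.74 and 13.7 FPKM and did not pass the test with papain (log2 change 0.51 ± 0.19, adjusted p = 0.173). Its change between exosomes with papain and papain was 0.59 ± 0.19 (adjusted p = 0.014) as deposited, lost without exosome library 1 (adjusted p = 0.0861), and -0.067 ± 0.11 (adjusted p = 0.662) when scaled. Il13 itself was below the filter, at 0, 0 and 0.0275 FPKM in control, 0.454 to 0.746 FPKM with papain, and 0.137, 0.08002 and 0 FPKM with papain and exosomes.

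The list with the largest median change after papain was that of epithelial genes known to respond to interleukin 13. Like the other lists, it was chosen with earlier results of these data known, so its rank and counts are descriptive. With papain 12 of 13 tested genes (18 listed) rose and 0 fell (13 and 0 at an unadjusted p under 0.05), with a median log2 change of 2.02. In the second comparison, exosomes with papain against papain, 5 fell and 1 rose as deposited (0.730% of all genes lower, 63.0% higher), and 9 fell and 0 rose when scaled (16.2% of all lower, 13.4% higher). Chil4, a chitinase-like protein, had means of 6.62, 7075 and 658 FPKM and changed by 10.09 ± 0.35 (limma, adjusted p = 9.51e-14) and -3.41 ± 0.35 (adjusted p = 8.51e-06). Ccl24, an eosinophil attractant, was at 0.0275, 3.19 and 0.122 FPKM and changed by 2.02 ± 0.16 and -1.90 ± 0.16. At these levels it could pass the filter only through its papain libraries. The direction of both changes was thus set by the filter, and no p-value is given for Ccl24, although it is in the counts above. The exception was the gel-forming mucin Muc5ac, at 3.41, 23.9 and 41.0 FPKM, which rose by 2.53 ± 0.28 (adjusted p = 7.64e-06) with papain and by a further 0.80 ± 0.28 (adjusted p = 0.0204) between exosomes with papain and papain. That further rise was lost without papain library 2, papain library 3 or exosome library 2 (adjusted p up to 0.108), and was 0.11 ± 0.34 (adjusted p = 0.841) when scaled.

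**Figure D5:**
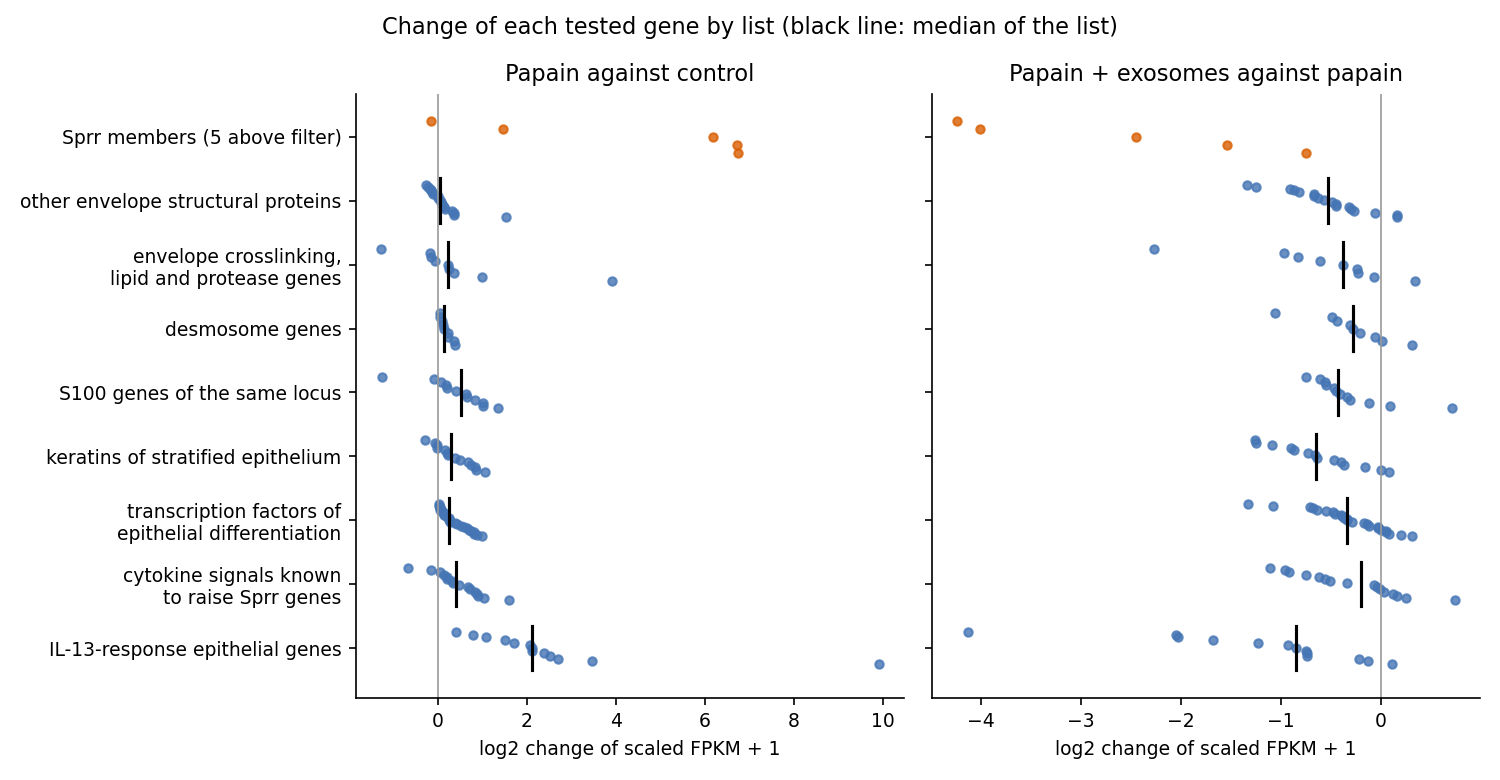
Log2 change of scaled FPKM + 1 for each gene above the filter (dots), for the Sprr members (orange, top) and 8 lists of other genes (blue), with the median of each list as a black line. Left, papain against control, where the 3 Sprr2a genes are at 6.17 to 6.73, Chil4 of the IL-13-response list lies beyond them and Alox12e (3.90) is the next gene below them. Right, exosomes with papain against papain, where the 5 Sprr members are all left of 0.

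The labelled tissue was checked on marker lists. Gland, olfactory neuron, sustentacular, ciliated and basal markers were present in every group, but not at equal levels. The 5 olfactory neuron markers summed to 464 to 605 in control, 192 to 353 with papain and 424 to 798 with papain and exosomes (scaled FPKM), against 355 to 461, 136 to 377 and 499 to 1273 FPKM as deposited, so their order of groups was opposite to that of the Sprr2a genes between papain and exosomes. Scaled, 3 of the 5 were lower with papain and 5 of 5 higher between exosomes with papain and papain (limma), and as deposited 0 and 5. Of all tested genes, 13.4% were higher between exosomes with papain and papain when scaled, and 63.0% as deposited. As deposited, 5 of 5 ciliated and 5 of 5 macrophage markers were also higher in that comparison, against 0 and 0 when scaled. The 5 neutrophil markers summed to 19.8 to 33.9, 38.6 to 92.2 and 74.0 to 91.3 FPKM, and 3 of them rose with papain on either scale (of 4 tested when scaled). The 4 eosinophil markers were each under 1 FPKM in every library. Their sums were 0.0520 to 0.234 FPKM in control, 1.08 to 1.24 with papain and 0.729 to 1.41 with papain and exosomes. When scaled they were 0.0681 to 0.306, 1.16 to 1.52 and 0.620 to 0.810, without overlap. As deposited, mean Siglecf was 0.212 FPKM with papain and 0.566 with exosomes. Prg2 went the other way, at 0.823 and 0.465 FPKM, and Epx and Ccr3 were also lower with exosomes. The 12 markers of stratified squamous epithelium (skin or nasal vestibule), a tissue known to express Sprr1a and Sprr3, summed to 17.3 to 42.1 FPKM in control, 30.9 to 48.4 with papain and 34.8 to 43.5 with papain and exosomes. These ranges overlapped, also when scaled (22.7 to 55.1, 29.0 to 68.1 and 21.0 to 37.0), where those of the Sprr2a genes did not. None of the 12 was at 0 in every library, 7 of them were tested, and 0 rose or fell with papain on either scale in limma, also at an unadjusted p under 0.05 (0 of 7). In control, Sprr1a, Sprr3 and the squamous sum had the same order of libraries, with library 1 highest (42.1 FPKM for the sum) and library 2 lowest (17.3 FPKM). With papain the squamous sum was 30.9, 48.4 and 45.1 FPKM as deposited, where library 2 was the highest, and that library was the lowest for Sprr1a and Sprr3. This mismatch was not kept when scaled. The scaled squamous sum was 29.0, 68.1 and 46.5, Sprr3 was 6.91, 9.93 and 7.60, and Sprr1a was 82.5, 89.0 and 92.2. Library 2 was then the highest for the sum and for Sprr3, and was not the lowest for Sprr1a. With papain and exosomes the squamous sum was 36.6, 34.8 and 43.5 FPKM as deposited and 21.0, 21.8 and 37.0 when scaled. Library 3 was the highest for the sum, Sprr1a and Sprr3 on both scales. The full order of libraries matched Sprr1a but not Sprr3 as deposited, and Sprr3 but not Sprr1a when scaled. The 5 basal markers summed to 35.6 to 60.6, 78.8 to 92.0 and 107 to 128 FPKM, and the 5 macrophage markers to 31.5 to 32.3, 42.7 to 65.8 and 72.1 to 111 FPKM, both highest in the exosome group, where the Sprr sum was below that of papain. On the scaled values the basal sum was 46.7 to 79.2, 81.1 to 122 and 67.3 to 91.2, and the macrophage sum 41.2 to 42.3, 54.0 to 67.7 and 61.3 to 64.9, so that order was lost. The part of any of these cells in the Sprr levels was not tested.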

How the data were processed

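Nasal mucosa poly(A) RNA was measured in 9 libraries, grouped by their titles. The authors deposited FPKM values per Ensembl gene, and per the submitters' processing notes fastp 0.19.4, HISAT2 and StringTie were the tools and mm10 the genome build. How reads shared by paralogs were handled, the strand setting and the annotation are not given in the sources used. No column was left unmapped (0). Symbols were found for 21817 of 21930 identifiers. Low values were not clear multiples of a single read (31.1% to 35.2% within 5% of a whole multiple, against 30.0% for evenly spread values), so no count test was run.

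The test was limma 3.58.1 (R 4.3.3) on log2(FPKM + 1), fitted once to the 9 libraries with a mean-variance trend. Genes needed at least 1 FPKM in 3 or more libraries, and p-values were adjusted by Benjamini-Hochberg over all tested genes. On simulated data for papain against control (12738 genes), it recovered 70 of 100 genes changed 2-fold and 99 of 100 changed 4-fold, and called 7 unchanged genes. These folds are of FPKM + 1, so they are larger in FPKM for low genes. Noise was drawn separately for each value, without a shift shared by a library. The figures thus do not cover the differences in scale between the real libraries. Scaled values are FPKM divided by a library's size factor, a median of ratios over 16486 genes. The members and all lists were chosen with earlier results of these data known, so counts over lists are descriptive. Named were all Sprr rows, up to 3 called genes of smallest p per list and comparison with genes so named in another comparison, listed genes below the filter (levels only), and the 6 genes most like the family sum, and among these the genes described were picked after their values were seen. Lor and Krt10 fall outside that rule. The alternatives were other scalings, filters and pseudocounts, a replicate block, fits of 2 groups, and each library left out. On scaled values, leaving out libraries was added after seeing the data. Promoters came from RefSeq, coding sequences and coordinates from GENCODE M21. Python 3.11.15, pandas 2.3.3, NumPy 2.4.6, Biopython 1.88 and matplotlib 3.10.9 were used.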

Additional observations from a re-analysis of the deposited data

How the results depend on the processing

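The summed Sprr level kept its direction in the 3 comparisons under every single alternative run. For exosomes with papain against papain its log2 difference of -1.93 became -2.64 with median-of-ratios scaling, -1.55 rescaled to a common sum, -2.43 with quantile normalization and -0.78 without the Sprr2a genes. Between exosomes with papain and control, 1.84 became 0.90, 2.31, 1.02 and 0.69, and for papain against control 3.77 became 1.48 without the Sprr2a genes. With each library left out it ran from 3.56 to 4.02 (papain against control), -2.07 to -1.78 and 1.63 to 2.09. Scaled and without the Sprr2a genes together, a combination chosen after seeing the data, it was 1.24 and -1.48, and -0.24 between exosomes with papain and control, a reversed direction. Sprr1a in that last comparison changed sign with scaling (-0.073). The 197 listed companion genes (116 tested) depended more on the scale, and over all tested genes the shares higher in the 3 comparisons were 3.01%, 63.0% and 84.3% as deposited and 5.77%, 13.4% and 12.3% when scaled. With papain against control, 40 were higher (26 with no filter, 20 to 48 with each library left out) and 1 lower (3 scaled, 0 at a common sum, 3 by quantiles, 2 with a replicate block, 2 with only the groups compared, 1 to 2 with each library left out). Between exosomes with papain and papain, 30 were higher (3 scaled, 47 at a common sum, 4 by quantiles, 3 with a log2 change of at least 1, 19 to 42 with each library left out) and 11 lower (48 scaled, 5 at a common sum, 45 by quantiles, 6 with a filter at 5 FPKM, 5 with a log2 change of at least 1, 7 to 13 with each library left out). Between exosomes with papain and control, 78 were higher (20 scaled, 25 by quantiles, 34 with a log2 change of at least 1, 67 to 83 with each library left out) and 1 lower (11 scaled, 0 at a common sum, 9 by quantiles, 3 with no filter, 0 with a log2 change of at least 1, 0 to 1 with each library left out). On scaled values with each library left out, the 43 higher and 3 lower with papain became 27 to 44 and 3 to 3, the 3 higher and 48 lower between exosomes with papain and papain became 1 to 3 and 31 to 52, and the 20 higher and 11 lower between exosomes with papain and control became 15 to 22 and 6 to 16. The cause was not tested. Correlations of deviations from group means were -0.312 to 0.141 between same-numbered libraries, so the numbers were not taken as pairs, and the replicate block gave 41, 30 and 79 higher and 2, 13 and 1 lower in the 3 comparisons. The 3 libraries per group and reads shared between Sprr2a1, Sprr2a2 and Sprr2a3 limit what can be said of single genes, and values near 0 FPKM rest on few fragments.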
